A study of Homo sapiens with 33 samples.

Results

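The total knockout of GABPB1 was examined in A-375, a human melanoma cell line, by RNA sequencing of edited clonal lines against control lines. Members were all transcripts or genes in the authors' deposited table for that comparison whose mean over its libraries was at least 10 normalized counts, which took 14325 of its 14332 entries. The knockout side joined 2 genotypes made with CRISPR-Cas9: B1KO, in which exons 2 to 9 of GABPB1 were deleted (4 libraries), and B1X2KO, in which exon 2 alone was deleted (8 libraries). These 12 libraries came from 9 clones, so several libraries shared a clone. The control side was 4 libraries of clones edited at ROSA26 (ROSA26_KO), a locus used as a neutral target, and 2 libraries of unedited parental cells. Edited lines were made by transfection with a PX458 plasmid, sorting of green fluorescent cells and growth from single cells, so each is a clone. The comparison thus concerned 18 of the 33 libraries of the series; the others were UM-UC-3 bladder cancer lines and A-375 lines that lack only exon 9 (B1LKO), and they enter below for comparison only.

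GABP is a transcription factor of 2 kinds of subunit. GABPA, a member of the ETS family, binds DNA at sites with a GGAA core, usually close to transcription start sites, and GABPB1 supplies the activation domain and the nuclear localization signal. The long form of GABPB1 carries a leucine zipper through which a pair of GABPA and GABPB1 dimers joins into a tetramer, whereas the short form lacks it. GABPB2 is a paralog of GABPB1 that can also bind GABPA. In melanoma and other cancers GABP is known for binding the mutated TERT promoter, and in most cell types for driving housekeeping genes, among them many of mitochondria and translation.

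The deposited table held fitted values and no value per library, so the depth of each library is unknown and no spread over libraries can be given. Each change below is the authors' log2 of knockout over control with its standard error, written log2 ± SE, and each p is their DESeq2 Wald test p adjusted by Benjamini-Hochberg; a gene was called where it was under 0.05. The p-values measure the spread between libraries, some of which share a clone. Control and knockout levels in normalized counts were worked out from the deposited mean and fold change for 9 knockout and 4 control lines, since the labels do not say which libraries entered the fit. Weighting 12 and 6 libraries instead moved the levels of the 498 named genes by between -7.68% and 3.85%. The cells carried melanocyte lineage transcripts: SOX10, the neural crest factor that maintains the lineage, had a mean of 14704 in the authors' deposited table (log2 -0.12 ± 0.30) and MITF, the pigment cell regulator, 686 (-0.22 ± 0.46). Of the 10 melanocyte markers 7 were listed and 0 were called, while MLANA, TYR and DCT were not listed. Of the listed ones, PMEL and TYRP1 had means of only 20.1 and 15.3, close to the filter of 10. PAX3 had 373, and S100B and EDNRB were higher still. Among markers of other types, 4 of 8 of keratinocytes, 4 of 7 of fibroblasts, 3 of 8 of urothelium, 3 of 6 of endothelium and 1 of 7 of leukocytes were listed. Of these, KRT15 of keratinocytes (1.64 ± 0.49) and CD68, a lysosomal membrane protein and the leukocyte entry (1.43 ± 0.34), were called higher and 0 lower, while PTPRC, CD3E, CD14 and ITGAM were not listed, from the authors' deposited table.

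The targeted gene lies on chromosome 15 (chr15:50275392-50355408, minus strand, hg38, GENCODE 29) and was listed by the authors as 4 custom entries. GABPB1L, the long form, had a control level of 423 normalized counts and a knockout level of 0.273 (authors' deposited table, log2 -10.60 ± 0.70). GABPB1S, the short form, went from 245 to 0.273 (authors' deposited table, log2 -9.81 ± 0.72). Entries for the forms without exon 2 did the reverse: GABPB1L-DEX2 had a control level of 0.071 and a knockout level of 889, and GABPB1S-DEX2 of 0.0707 and 371, in the authors' deposited table. Transcripts without exon 2 were thus present on the knockout side. By design B1X2KO lacks exon 2 alone, as these forms do, whereas B1KO lacks exons 2 to 9. The table does not separate B1KO from B1X2KO, so the levels are those of both genotypes joined. Levels under 1 count rest on the fit, so no fold is read from them. The exon 9 lines draw on the same A-375 control groups, though the labels do not say which control libraries entered either fit. In the authors' deposited table for those lines, the names of the short-form entries appeared swapped relative to this table. GABPB1S-DEX2 there went from a control level of 245 to a knockout level of 0.0596 on the same scale. GABPB1S went from 0.0708 to 1124. By design those lines lack exon 9 alone, and what the 2 names stand for there was not tested.

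The partners of GABPB1 were higher in the knockout. GABPA rose from 1056 to 1854 normalized counts (authors' deposited table, log2 0.81 ± 0.22, adjusted p = 0.00508), and in UM-UC-3 its value was 1.43. GABPB2 rose from 139.5 to 487.5 (authors' deposited table, log2 1.81 ± 0.32, adjusted p = 6.05e-06), with 2.49 in UM-UC-3. In the exon 9 lines, which draw on the same A-375 control groups, the values were 0.28 and 0.29 and neither was called. TERT, the catalytic subunit of telomerase, fell from 203 to 5.68 (authors' deposited table, log2 -5.16 ± 1.69, adjusted p = 0.0287), with -1.77 in UM-UC-3 and 0.10 in the exon 9 lines.

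Across all members, 1549 of the 14324 with an adjusted p were called, 10.8% of those tested, 726 higher (5.07%) and 823 lower (5.75%), as counted in the authors' deposited table. Higher calls were larger: 390 were at least 2-fold, 180 at least 4-fold and 78 at least 8-fold, against 336, 68 and 21 of the lower calls. The median change of all members was -0.05, with 7821 below 0 and 6503 above. Subtracting that median changed the split, from 46.9% of the calls higher to 58.3% (906 higher and 647 lower). At the edge of the filter, PRR9 (mean 10.06, log2 7.85 ± 2.14) and GRIK4 (10.7, 1.74 ± 1.02) lay just inside and RBM24 (9.68, -0.18 ± 0.89) and FAM196B (9.04, -0.32 ± 0.65) just outside, in the authors' deposited table.

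**Figure D1:**
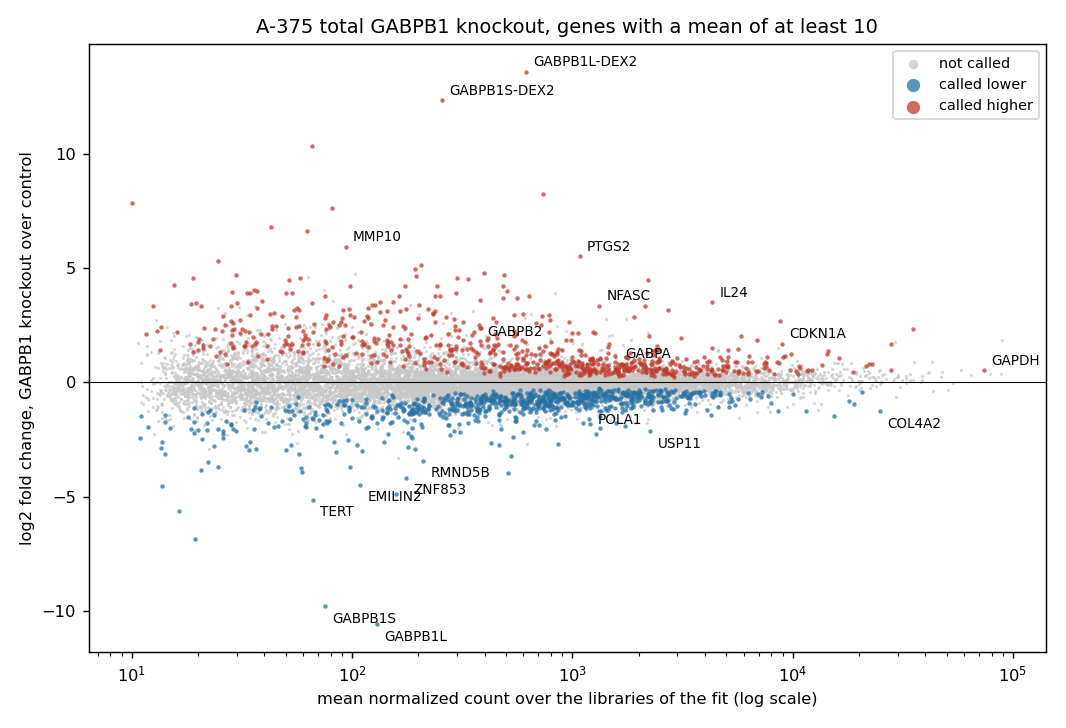
Log2 change in the A-375 total knockout against mean normalized counts (log axis) for the members, with called genes coloured by direction. Called genes lie on both sides of 0, 726 higher and 823 lower, at all levels from 10 counts upward.

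Among the clearest rises, NFASC, a neuronal adhesion protein, went from 177 to 1829 normalized counts in the authors' deposited table (log2 3.37 ± 0.58, adjusted p = 2.27e-06). ASTN1, a neuronal migration protein, had 3.77 ± 0.68, HS6ST3, a heparan sulfate sulfotransferase, 3.50 ± 0.60, and TUBB3, the neuronal beta-tubulin, 1.14 ± 0.22 from an already high control level of 5012, in the authors' deposited table. NOV, a matricellular protein, had 3.62 ± 0.63 and STC1, a glycoprotein hormone, 3.19 ± 0.60 in the authors' deposited table. Of both, NOV was called in UM-UC-3 (3.75) and STC1 was not (0.64), in the table deposited for that line. PTGS2, the inducible cyclooxygenase, rose from 33.6 to 1542 (authors' deposited table, log2 5.52 ± 0.82).

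Among the clearest falls, USP11, a deubiquitinase, fell from 4863 to 1105 normalized counts (authors' deposited table, log2 -2.14 ± 0.23) and RMND5B, a subunit of the CTLH ubiquitin ligase, from 567 to 52.5 (-3.43 ± 0.33). STAMBP, a deubiquitinase of endosomes, fell from 1602 to 385 (authors' deposited table, log2 -2.06 ± 0.29, adjusted p = 1.23e-09), and CUL7, a cullin scaffold, from 2215 to 741 (-1.58 ± 0.25). NEK9, a mitotic kinase, fell from 1132 to 170, NEDD1, which brings gamma-tubulin to centrosomes, from 1035 to 398, and CNTRL, a centriolar protein, from 2373 to 675.2, in the authors' deposited table. Others were NCAM2, a neural adhesion protein (-2.29 ± 0.31), HIP1, an endocytic adaptor (-1.09 ± 0.17), SETDB2, a histone methyltransferase-like protein (-1.30 ± 0.20), and MAP2K5, a kinase of the ERK5 cascade (-2.15 ± 0.27), in the authors' deposited table. SETDB2 lies on chromosome 13, described below. USP11, NEDD1, STAMBP and CUL7 also fell in UM-UC-3 (-2.33, -1.11, -1.11 and -1.65), whereas NCAM2 and CNTRL stood at -0.02 and 0.14. The exon 9 lines draw on the same control groups. In them MYO15B, an unconventional myosin gene, had -1.84 and FLG, the epidermal protein filaggrin, -1.55. The antisense gene of FLG, FLG-AS1, had -1.54 and ZNF853, a zinc finger gene, -1.55, and all of these were called. In the total knockout they had -2.62 ± 0.39, -2.71 ± 0.37, -2.91 ± 0.26 and -4.16 ± 0.66, in that order, in the authors' deposited tables.

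The promoters of the genes that fell carried the letters ACTTCCGG, an extended ETS site, more often than those of other members. The sequences below are the 150 bases before the RefSeq start (GRCh38.p14), 5′ to 3′ on the strand of the gene, with ACTTCCGG or its reverse complement CCGGAAGT in capitals. The first 8 lines are the genes called lower with the smallest adjusted p among those with a mean of at least 100 and these 8 letters in the stretch. The last 2 lines, RMND5B and NEK9, fell and lack the 8 letters, though both hold the shorter TTCCGG or its reverse complement. MFAP3, FAM114A2, DOCK4, FTSJ2 and PAAF1 were chosen after their values were seen.
USP11: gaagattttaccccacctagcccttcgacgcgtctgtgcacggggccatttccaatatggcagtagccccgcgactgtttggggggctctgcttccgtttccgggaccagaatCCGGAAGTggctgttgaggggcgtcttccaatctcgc
NEDD1: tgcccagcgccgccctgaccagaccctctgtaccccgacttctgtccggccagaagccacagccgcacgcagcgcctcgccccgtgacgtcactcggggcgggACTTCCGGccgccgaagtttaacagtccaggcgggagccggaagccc
POLA1: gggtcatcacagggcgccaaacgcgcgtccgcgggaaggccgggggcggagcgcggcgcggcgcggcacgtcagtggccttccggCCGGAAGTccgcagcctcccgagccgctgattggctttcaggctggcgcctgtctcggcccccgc
MFAP3: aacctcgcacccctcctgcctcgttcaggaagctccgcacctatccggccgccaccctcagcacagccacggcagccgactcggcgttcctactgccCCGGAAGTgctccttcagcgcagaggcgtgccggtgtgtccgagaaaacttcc
FAM114A2: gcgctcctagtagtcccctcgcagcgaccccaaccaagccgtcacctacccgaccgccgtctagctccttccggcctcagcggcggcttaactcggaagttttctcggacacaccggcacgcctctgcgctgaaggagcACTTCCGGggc
DOCK4: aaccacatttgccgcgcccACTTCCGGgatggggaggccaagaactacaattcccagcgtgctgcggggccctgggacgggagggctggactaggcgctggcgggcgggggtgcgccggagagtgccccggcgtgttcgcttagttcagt
FTSJ2: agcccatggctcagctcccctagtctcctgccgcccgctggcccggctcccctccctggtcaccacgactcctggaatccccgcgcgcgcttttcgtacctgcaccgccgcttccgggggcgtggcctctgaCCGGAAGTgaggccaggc
PAAF1: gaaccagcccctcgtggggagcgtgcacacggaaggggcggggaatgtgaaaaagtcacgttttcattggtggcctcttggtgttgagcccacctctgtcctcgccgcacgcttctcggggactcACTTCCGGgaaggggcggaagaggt
RMND5B: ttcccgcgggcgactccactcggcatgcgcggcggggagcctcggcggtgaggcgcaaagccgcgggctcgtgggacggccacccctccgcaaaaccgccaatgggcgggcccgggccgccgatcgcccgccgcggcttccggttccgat
NEK9: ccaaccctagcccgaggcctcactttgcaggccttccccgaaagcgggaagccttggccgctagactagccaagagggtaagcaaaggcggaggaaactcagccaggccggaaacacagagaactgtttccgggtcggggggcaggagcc

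In these stretches the site began 37 bases before the start in USP11 (chrX:47232859-47233008, plus strand), 47 in NEDD1 (chr12:96907107-96907256, plus), 65 in POLA1 (chrX:24693768-24693917, plus) and 131 in DOCK4 (chr7:112206400-112206549, minus). It began 18 bases before it in FTSJ2 (chr7:2242206-2242355, minus) and 25 in PAAF1 (chr11:73876849-73876998, plus). The stretches of RMND5B (chr5:178130864-178131013, plus) and NEK9 (chr14:75127049-75127198, minus) did not hold the 8 letters, which says nothing about binding. POLA1, the catalytic subunit of DNA polymerase alpha, fell from 1923 to 885.7 normalized counts (authors' deposited table, log2 -1.12 ± 0.20). DOCK4, an exchange factor for Rac, had -1.49 ± 0.26, PAAF1, a proteasome assembly factor, -1.50 ± 0.30, and FTSJ2, a mitochondrial rRNA methyltransferase, -0.87 ± 0.17, in the authors' deposited table. GABPA, which rose, held the site too, 67 bases before its start (chr21:25734822-25734971, plus):
GABPA: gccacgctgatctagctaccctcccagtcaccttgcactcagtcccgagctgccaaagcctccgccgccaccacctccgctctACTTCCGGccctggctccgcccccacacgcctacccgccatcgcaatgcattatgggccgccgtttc

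MFAP3 and FAM114A2 are transcribed away from each other, and 1 site (chr5:154038914-154038921) served both windows, 53 bases before the start of MFAP3 (chr5:154038817-154038966, plus) and 11 before that of FAM114A2 (chr5:154038911-154039060, minus). Both fell, MFAP3 with a log2 change of -0.90 ± 0.15 and FAM114A2 with -1.37 ± 0.23 in the authors' deposited table. Chromosome 8 was left out of the count of such pairs. On the other chromosomes 126 divergent pairs of members shared a site, of which 23 had 1 or both genes called lower and 11 had 1 or both called higher. Of the 252 genes in these pairs 10.7% were called lower and 4.37% higher. These shares were close to the 10.2% and 3.08% of all 1073 members with the letters, chromosome 8 included. Both members fell in 4 pairs and rose in 0, and 1 pair moved in opposite directions. The other pairs that fell together were ADAL and LCMT2 (-0.80 ± 0.22 and -0.90 ± 0.20), PCID2 and CUL4A (-0.85 ± 0.20 and -0.50 ± 0.17), and COX10 with COX10-AS1, in the authors' deposited table. PCID2 and CUL4A lie on chromosome 13, in a run of 5 genes called lower. The calls of CUL4A and COX10 were lost when the median was subtracted. Within a pair the members could also differ: NFS1, the cysteine desulfurase of iron-sulfur clusters, fell (-0.94 ± 0.19) and its neighbour ROMO1 had 0.15 in the authors' deposited table.

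Over windows from 250 bases before to 50 after each start, 16.8% of genes called lower held ACTTCCGG on either strand (109 of 648), against 5.69% of those called higher (33 of 580) and 9.34% of those not called (931 of 9971). The share over all 27305 RefSeq genes was 4.95%, and 11199 members could be matched. Genes with a single window gave 17.8%, 5.01% and 9.43%. The share was 18.7% among genes that fell by less than 2-fold and 13.6% among those that fell by more, so the site was not concentrated among the largest falls. For the shorter core ACTTCCG, on either strand, the shares were 25% of lower, 9.48% of higher and 14.7% of uncalled genes, and 8.18% of all RefSeq genes. For TTCCGG, searched after the data were seen, they were 51.7%, 24.3% and 33%, and 20.1% of all RefSeq genes. The E-box CACGTG, searched after the data were seen, gave 9.1%, 11.6% and 12.7%, and the CRE letters TGACGTCA 3.86%, 3.45% and 3.7%. In 10 equal bins of genes ordered by Wald statistic, from most lower to most higher, the ACTTCCGG share went from 16.5% to 6.07% and that of the E-box from 10.4% to 12.9%. These shares describe letters in the windows, and no test was made of them.

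**Figure D2:**
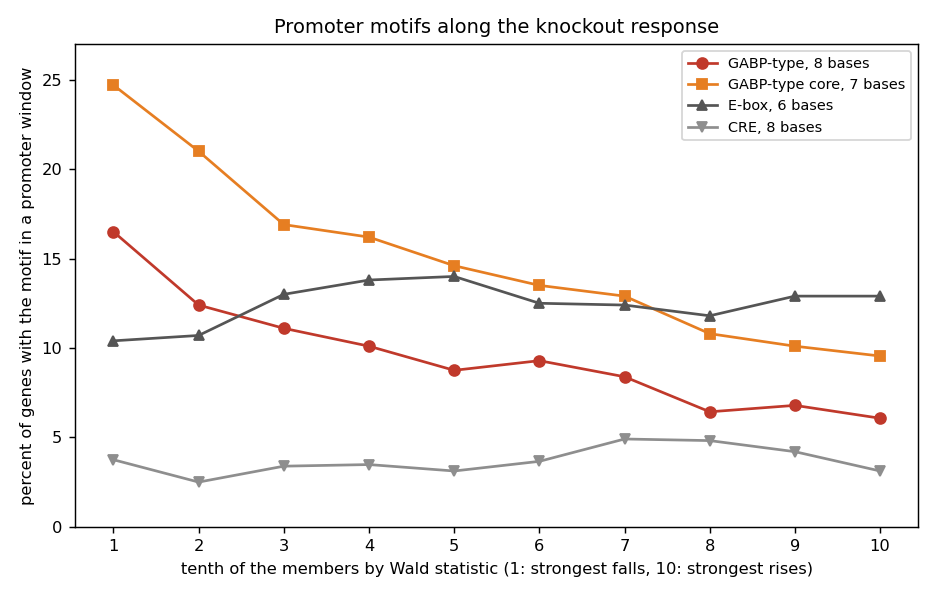
Share of genes with each motif in the promoter window (y axis, percent) in 10 equal bins of members ordered by the authors' Wald statistic (x axis, most lower at left); the GABP-type line of 8 bases is ACTTCCGG and its core of 7 bases ACTTCCG. The ACTTCCGG share is 16.5% in the lowest bin and 6.07% in the highest.

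Grouped by role, 2974 genes in 100 listed groups were counted in the authors' deposited table, against a background of 5.07% higher and 5.75% lower. The same shares are the background of each single group named below. Cell division leaned down (6 higher and 34 lower of 286, 2.1% and 11.9%, median log2 -0.48), and p53 targets up (22 and 3 of 57, 38.6% and 5.26%, median 0.60). Autophagy and lysosome genes leaned up (24 and 1 of 121, 19.8% and 0.826%, median 0.25), as did immune genes (16 and 3 of 148, 10.8% and 2.03%, median 0.24). Chromatin genes had 6 higher and 13 lower of 147 (4.08% and 8.84%). Mitochondrial genes stayed under the background in both directions (8 and 16 of 344, 2.33% and 4.65%, median -0.02). For gene expression, subtracting the median of all members moved the count of higher genes from 19 to 30 of 444.

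**Figure D3:**
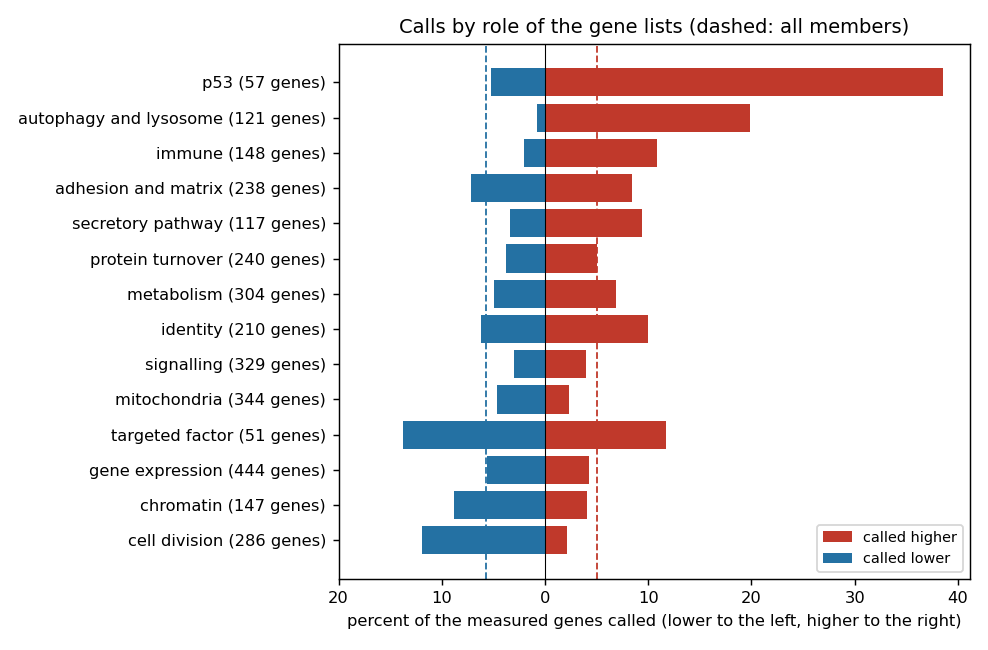
Percent of measured genes called lower (bars to the left) and higher (bars to the right) in each role, with dashed lines at the shares of all members. Cell division has 2.1% higher and 11.9% lower, against 38.6% and 5.26% for p53 targets.

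Within cell division, 3 of 20 genes of RB and E2F fell and 0 rose. RB1, the retinoblastoma tumour suppressor that restrains E2F, fell from 2259 to 940 normalized counts (authors' deposited table, log2 -1.26 ± 0.24) and had 0.06 in UM-UC-3; its chromosome, 13, had a median of -0.40 (below). E2F2 and E2F5 had -1.34 ± 0.45 and -1.21 ± 0.42 in the authors' deposited table. Cohesin and condensin genes fell in 6 of 25, including PDS5B (-0.85 ± 0.18) and SMC6 (-0.69 ± 0.17), in the authors' deposited table. Centriole genes fell in 7 of 32, including CENPJ (-1.30 ± 0.31) and CCDC14 (-1.67 ± 0.35), in the same values. PDS5B and CENPJ also lie on chromosome 13. Without chromosomes 13 and X, the cell division genes called lower went from 34 to 28. Mitotic kinesins had the lowest median of the 100 groups (-0.88), with 2 of 17 called, KIF20B (-0.88 ± 0.28) and KIF2A (-0.65 ± 0.17), from the authors' deposited table. Replication polymerases had 3 lower and 1 higher of 25; POLD4, the small subunit of polymerase delta, was the one that rose (authors' deposited table, log2 1.12 ± 0.25). Nucleotide synthesis had 4 lower and 2 higher of 27, DUT, which removes dUTP (-1.26 ± 0.30), and ADSL, of purine synthesis (-0.90 ± 0.24), among the lower and IMPDH2 (0.52 ± 0.17) and HPRT1 (0.52 ± 0.18) the higher, from the authors' deposited table.

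The p53 groups differed among themselves. Arrest genes rose in 4 of 9, led by CDKN1A, the inhibitor of cyclin-dependent kinases (authors' deposited table, log2 1.69 ± 0.29), and PLK3 (1.25 ± 0.25). Apoptosis genes rose in 5 of 14, with FAS, a death receptor, at 1.49 ± 0.41 and BAX, which permeabilizes mitochondria, at 0.80 ± 0.20, from the authors' deposited table. Repair and metabolism genes rose in 10 of 24, including EDA2R (1.62 ± 0.34), FDXR (1.19 ± 0.26) and TIGAR (1.01 ± 0.28), in the authors' deposited table. Feedback genes split, 3 higher and 3 lower of 10, with MDM2 (0.91 ± 0.26) higher and MDM4 (-1.0 ± 0.28) and TP73 (-1.37 ± 0.43) lower, from the authors' deposited table. CDKN1A, MDM2, FAS and FDXR had 0.33, 0.13, 0.51 and 0.21 in UM-UC-3, and none of these 4 was called there.

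Lysosomal membrane genes rose in 10 of 32 and hydrolases in 6 of 38, with 1 hydrolase lower. ATP6V0E1, a subunit of the proton pump, had 0.79 ± 0.12 (authors' deposited table, adjusted p = 9.71e-08), IDS, iduronate sulfatase, 1.43 ± 0.28, and CTSH, a cathepsin, 1.22 ± 0.27. The hydrolase that fell was GBA2, a glucosylceramidase outside the lysosome (-1.0 ± 0.29), which also fell in UM-UC-3 (-1.72), from the authors' deposited table. SQSTM1, the cargo receptor p62, had 1.24 ± 0.32 and MAP1LC3B, an ATG8 protein, 0.80 ± 0.15 in the authors' deposited table. Golgi and vesicle coat genes rose in 6 of 40 and fell in 0, including COPZ2 (1.41 ± 0.33) and SEC24D (0.75 ± 0.22), from the authors' deposited table.

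Of immune genes, IL24, a cytokine, rose from 523 to 6006 and C3, the central complement protein, from 293.9 to 2967 in the authors' deposited table. Eicosanoid genes rose in 5 of 23 and fell in 1, with PLA2G4A, the phospholipase that frees arachidonate, at 2.66 ± 0.71 and PLA2G7 at 2.08 ± 0.43, from the authors' deposited table. Chemokines and interleukins rose in 2 of 22, IL24 and IL1B (2.5 ± 0.84), and MHC class II genes in 2 of 12, HLA-DPA1 (3.23 ± 0.97) and HLA-DPB1 (2.52 ± 0.79), in the authors' deposited table. Complement genes rose in 4 of 24; CD59, which blocks the membrane attack complex, went from 6986 to 17885. Matrix proteases were even, 4 higher and 4 lower of 36, with MMP1 at 4.02 ± 0.94 and MMP10 at 5.94 ± 1.25 against ADAMTS10 at -3.49 ± 0.88, from the authors' deposited table. Axon guidance was even too, 6 and 6 of 48, with NRP1 (1.46 ± 0.36) and NEO1 (1.86 ± 0.47) higher and PLXND1 (-1.11 ± 0.25) and SEMA3G (-1.78 ± 0.46) lower, in the authors' deposited table.

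Of the machinery of gene expression, all 48 large-subunit and all 32 small-subunit ribosomal protein genes had values above 0, with 5 and 9 called (medians 0.38 and 0.42), although ribosomal protein genes have many near-identical copies that share reads. RPS27 had 1.11 ± 0.32 and RPS21 0.79 ± 0.22 in the authors' deposited table, against -0.27 and -0.61 in UM-UC-3. RNA45S5, the ribosomal RNA precursor, had 2.35 ± 0.84 (authors' deposited table, adjusted p = 0.0476), although the libraries were of mRNA; its part in these rises was not tested. Ribosome biogenesis genes fell in 6 of 55 and rose in 0, including RIOK1 (-1.17 ± 0.28) and WDR3 (-0.99 ± 0.31), from the authors' deposited table. RNA polymerase II and TFIID had 4 lower and 1 higher of 34 (11.8% and 2.94%). TAF1, the largest subunit of TFIID, had -0.92 ± 0.14, TAF5 -1.04 ± 0.32 and POLR2L 0.82 ± 0.20, from the authors' deposited table. Mediator had 3 lower of 32 (9.38%, against 5.75% of all members), MED14 among them at -1.14 ± 0.33 in the same values. SNRNP200, the helicase that unwinds the spliceosome, fell (-0.90 ± 0.16 in the authors' deposited table). Among mitochondrial genes the iron-sulfur and coenzyme Q group had 3 lower and 2 higher of 33 (median 0.07). PDSS1 (-1.64 ± 0.39) and NFS1 were among the lower, and ISCU (0.64 ± 0.15) and ISCA1 (0.47 ± 0.14) were the higher, in the authors' deposited table. TFB1M, which methylates mitochondrial rRNA and is a known GABP target, had -0.90 ± 0.20 there. Most listed GABP targets were not called. Of 27 measured, 4 were lower (14.8%) and 1 higher (3.7%), with a median of -0.10, against 5.75% and 5.07% of all members.

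NRF2 and thiol redox genes rose in 7 of 42 and fell in 0, with PRDX2, a peroxiredoxin, at 0.72 ± 0.13 and GPX3 at 2.90 ± 0.88 in the authors' deposited table. Cholesterol synthesis had 3 lower of 33 and 0 higher, among them SREBF2, its regulator (-0.76 ± 0.22), and MYLIP (-0.89 ± 0.28), from the authors' deposited table. Early-response genes rose in 3 of 28, EGR2 (3.69 ± 1.06), EGR4 (3.44 ± 0.81) and IER5 (0.68 ± 0.23), and growth factors in 3 of 30, including GDNF (2.58 ± 0.57) and HBEGF (1.70 ± 0.48), in the authors' deposited table. MAPK kinases had 3 lower of 35 (8.57%), among them MAP2K6 (-2.54 ± 0.52), from the authors' deposited table. Cholesterol synthesis was lower in 9.09%, early-response genes higher in 10.7% and growth factors in 10%. Over all members 5.75% were lower and 5.07% higher. With 3 calls in each of these 4 groups, no lean is read from them. Of abundant genes, COL4A2 and COL4A1, the chains of basement membrane collagen on chromosome 13, had -1.27 ± 0.29 and -1.46 ± 0.35, GAPDH 0.53 ± 0.16 and TIMP1, the metalloprotease inhibitor, 1.68 ± 0.56, from the authors' deposited table. In 3 groups no gene was called: G1 cyclins and CDKs, mitochondrial import and receptor tyrosine kinases.

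The lines of UM-UC-3 shared no library with A-375, so the difference between the 2 changes could be tested for 12620 genes in both tables. A z test of the difference of the deposited log2 changes called 1319 of them (10.5%), 520 with A-375 above and 799 below. In UM-UC-3 itself 31.2% of the genes tested were called, 17% higher and 14.2% lower. Of the 579 genes higher in A-375, 152 were called the same way in UM-UC-3 (26.3%) and 39 the opposite way (6.74%). Of the 731 lower ones, 262 went the same way (35.8%) and 30 the opposite way (4.1%). The medians of the higher genes were 0.89 in A-375 and 0.18 in UM-UC-3, and those of the lower ones -0.83 and -0.23. These genes were chosen by their A-375 calls, which by itself moves the A-375 medians away from 0. The medians therefore do not compare the size of the response between the lines. Across genes, which are not independent replicates, Pearson's r was 0.335. MYL6, a myosin light chain, had 0.91 in A-375 and -0.68 in UM-UC-3 in the authors' deposited tables, a difference of 1.59 ± 0.21 (adjusted p = 7.91e-10). ANTXR1, an anthrax toxin receptor, fell in both but more in UM-UC-3 (-1.78 and -4.86), and RMND5B more in A-375 (-3.43 and -1.34).

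**Figure D4:**
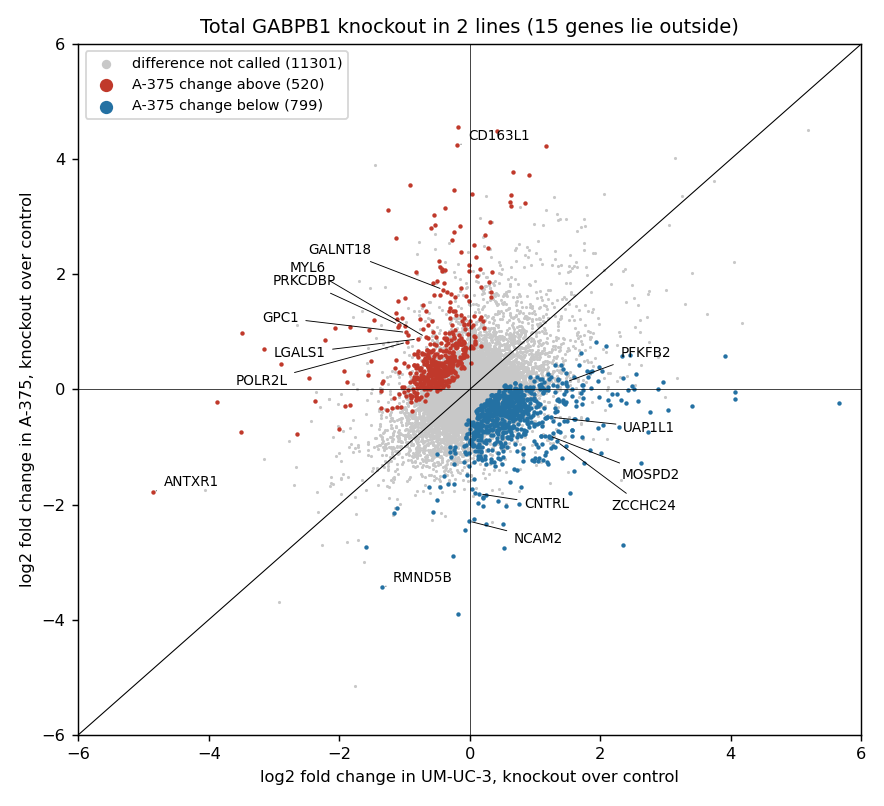
Log2 change in the A-375 total knockout (y axis) against that in UM-UC-3 (x axis), with genes whose difference was called coloured and equality drawn as a diagonal; 15 genes lie outside the axes. Of the 12620 genes, 520 lie with A-375 above and 799 with A-375 below by that test.

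By position, chromosomes 13 and X stood apart from the rest. On chromosome 13, 39 of 248 members were called lower (15.73%) and 4 higher, with a median of -0.40 and 185 values below 0. On X, 61 of 494 were called higher (12.35%) and 22 lower (4.45%), with a median of 0.16. The share on chromosome 13 was 13.7% lower after subtracting the median, and the share on X 15% higher. In the UM-UC-3 table, 13.92% of chromosome 13 members were higher and 6.33% lower, and 20.33% of those on X higher and 10.17% lower, against 17% and 14.2% of all genes of that table. In the exon 9 table, which draws on the same control groups, 0 of 251 members of chromosome 13 were called, against a background of 0.899%. Without both chromosomes the calls numbered 661 higher and 762 lower, the cell division genes called lower went from 34 to 28 and the autophagy and lysosome genes called higher from 24 to 20.

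**Figure D5:**
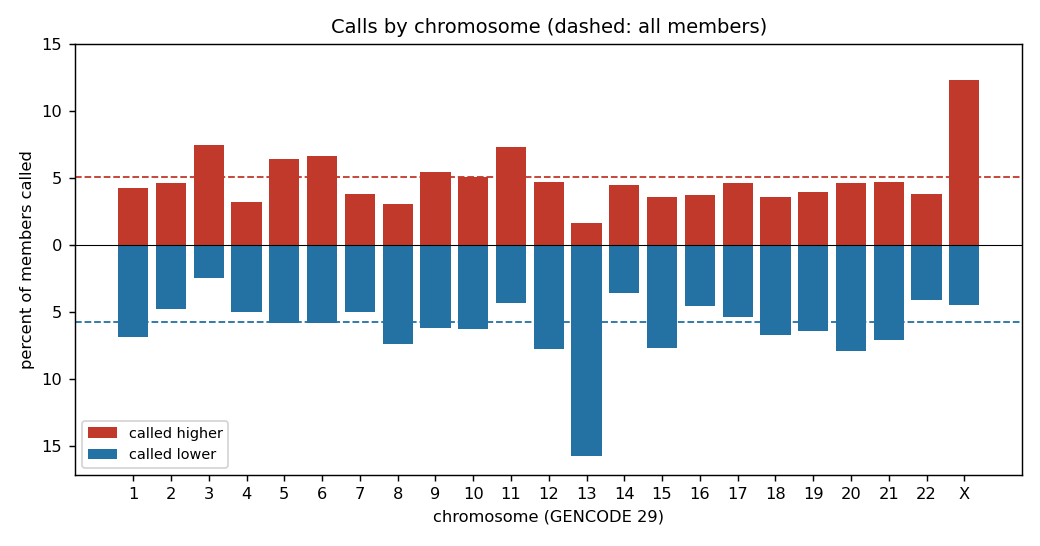
Percent of members called higher (upward bars) and lower (downward bars) on each chromosome, with dashed lines at the shares of all members. Chromosome 13 has 15.73% lower and X has 12.35% higher, against 5.75% and 5.07% of all members.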

How the data were processed

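RNA from A-375 and UM-UC-3 lines was converted to stranded libraries of mRNA, per the labels' protocols. The submitters' processing notes name HISAT2, SAMtools, StringTie, DESeq2 and hg38, with no order or versions; the strand setting of the counting was not stated. Per the file headers, the authors deposited, for each comparison, a mean signal of normalized counts, a log2 fold change with its standard error, a Wald statistic (score), and p-values with adjusted p-values and q-values. No count per library was analysed, so depth is unknown. Members have a mean of at least 10. The members and lists were chosen with earlier results of these data known. Named genes were, in brief, the GABP subunits, the 20 clearest each way (mean at least 100, log2 at least 1), the 8 most abundant each way, up to 6 called per list, the 8 largest line differences each way, clusters of at least 3 called among 5 neighbours, and the edges of the filter. Coordinates came from GENCODE 29 and promoters from RefSeq GRCh38.p14. Line differences were tested with a z test and Benjamini-Hochberg adjustment, which was tested on simulated data. Python 3.11.15, pandas 2.3.3, numpy 2.4.6 and scipy 1.17.1 were used.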

Additional observations from a re-analysis of the deposited data

Results flagged for a closer look

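These genes differed between the A-375 and UM-UC-3 total knockouts by the z test of the difference (means from 100 upward). Each value is the A-375 log2 change minus that of UM-UC-3, from the authors' deposited tables. A-375 was above for MYL6 (1.59), CD163L1 (4.43), ANTXR1 (3.08), GALNT18 (2.14), LGALS1 (1.67), POLR2L (1.78), GPC1 (1.96) and PRKCDBP (2.21). It was below for ZCCHC24 (-2.24), NCAM2 (-2.27), UAP1L1 (-1.73), MOSPD2 (-2.02), CNTRL (-1.96), PFKFB2 (-1.35) and RMND5B (-2.09). TMEM110 had a difference of -24.76, from 0.24 ± 2.41 in A-375 and 25 ± 3.29 in UM-UC-3, fitted values that depend on a group near 0 and carry no fold.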

How the results depend on the processing

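The 1549 genes called either way became 705 at an adjusted p under 0.01, 726 where also at least 2-fold and 172 with the Holm adjustment. The higher genes went from 5.07% of all members tested to 2.3%, 2.72% and 0.538%, and the lower genes from 5.75% to 2.62%, 2.35% and 0.663%, in that order. Subtracting the median moved gene expression genes called higher from 19 to 30. The line differences went from 1319 to 519 at an adjusted p under 0.01, from 520 to 209 with A-375 above and from 799 to 310 below. Of the other results of that kind, 77 values were unchanged by the rule set for each. Counts had to stay within 1.5 times, and the GABP entries had to keep their sign and call. Chromosome and motif shares had to stay within the binomial interval of the reported share. Of 498 named genes, subtracting the median left 453 as they were, called or not, ended 43 calls and added 2, and 0 reversed. The alternatives without chromosomes 13 and X, and the motif alternatives, were chosen after seeing the data. No paired analysis was possible because the tables hold no values per library, and leaving out a replicate could not be run for the same reason. Depth per library is unknown.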

Other observations

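Some called genes lay next to each other. Counting runs of at least 3 called in 1 direction among 5 neighbouring members, 17 runs were higher (62 genes) and 24 lower (78 genes) in the authors' deposited table. How many runs scattered calls would give, at 5.07% higher and 5.75% lower, was not worked out. Several lower runs lay on chromosome 13, and some counted a gene with its own antisense gene, such as URB1 and URB1-AS1. The longest run was of histone genes on chromosome 6 (26055787 to 26227473, hg38), where 8 of 14 members rose, among them HIST1H1C and HIST1H2BC. Of 26 histone entries in all, 14 rose and 0 fell (median log2 1.78), with HIST2H2BE at 2.76 ± 0.48 and HIST3H2A at 1.66 ± 0.30. Histone genes share reads with near-identical copies and most of their transcripts lack poly(A) tails. RNA45S5, the ribosomal RNA precursor, had 2.35 ± 0.84 in the authors' deposited table, and the part of RNA selection was not tested. On chromosome 11 (102317450 to 102798160, hg38), BIRC3 and BIRC2, inhibitors of apoptosis, rose beside MMP10 and MMP1. At the filaggrin locus (chromosome 1, 152168125 to 152445456), FLG, FLG2, HRNR and FLG-AS1 fell; FLG-AS1 overlaps FLG, so reads cannot be told apart without strand. Near it LCE1F (7.64 ± 1.56) and LCE1D (4.01 ± 1.07), cornified envelope genes, rose.

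Short transcripts were called higher more often and long ones lower: of 5 equal bins by length, the shortest had 7.04% higher and 3.67% lower, and the longest 4.19% and 7.9%. The part of transcript length in the group results was not tested.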
